A study of Mus musculus with 24 samples.

Results

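The sodium pump genes described here are Atp1b1, Atp1b2 and Atp1b3, which encode beta subunits of the Na,K-ATPase, and Fxyd1, Fxyd5 and Fxyd6, which encode small membrane proteins of the FXYD family. All 6 were found by gene name among the 28109 genes of the deposited table, and all 6 passed the filter on low counts in each fit. The 6 genes were chosen with earlier results of these same libraries known, and the comparison they were selected on is not recorded, so every value and test below is a description of these genes and not independent support. RNA-seq had been done on C2C12 cells, an established mouse myoblast line that the labels place in the C3H strain, and on primary myoblasts (PMs) that the labels place in the C57/B6 strain. Each cell type was transfected either with siControl, an siRNA whose target the labels give as luciferase, or with siTead1/4, siRNAs against the transcription factors Tead1 and Tead4. RNA was taken at day 0, a day after transfection and while cells were in growth medium, and at days 3 and 6 after the switch to 2% horse serum, in which myoblasts stop dividing and fuse into myotubes. Each of the 12 groups held 2 biological replicates, giving 24 libraries, and all C2C12 libraries come from 1 cell line, all siRNA effects are transient knockdowns, and cell type, strain and culture origin cannot be told apart.

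The Na,K-ATPase exports sodium and imports potassium against their gradients, and in muscle it restores these gradients after action potentials. Its alpha subunit binds ATP and carries the ions, while the beta subunit is needed for the alpha subunit to fold and to reach the plasma membrane and also shapes the affinity for potassium. FXYD proteins associate with the assembled pump and tune its affinity for ions or its maximal rate in a tissue-dependent way. Fxyd1, also called phospholemman, is known from heart and skeletal muscle, Fxyd5, also called dysadherin, is known for weakening cell adhesion, and Fxyd6, also called phosphohippolin, is best known from brain.

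Library totals ranged from 25453830 to 52784510 counts, and levels are in CPM, the count of a gene over the TMM-scaled library size, with TMM run over all 24 libraries, and are printed as the mean ± SD of n = 2 where a mean is printed. A floor of 3 counts corresponded to 0.0533 to 0.11 CPM. Tead4 was lower in every siTead1/4 library than in both siControl libraries of the same cell type and day, and Tead1 was so in all 6 pairs of groups except C2C12 day 6, where 70.6 and 77 CPM overlapped 76.0 and 136 CPM. In C2C12 day 0 cells the siTead1/4 replicates held unequal Tead1, 28.9 and 4.50 CPM. By the threshold given below, Tead4 was called lower in C2C12 cells at days 0 and 3 and in PMs at days 0, 3 and 6. Tead1 was called lower in PMs at days 0 and 3 only. Neither target was called in C2C12 cells at day 6. The summed CPM of 8 genes of differentiated muscle, Myog, Myh3 and Ckm among them, was 27.7 to 81.7 in siControl C2C12 cells at day 0 and 14420 to 17180 at day 3, and in siControl PMs 8785 to 9381 at day 0 and 30270 to 32110 at day 3, so the PMs already carried muscle transcripts at day 0. Of genes of other cell types, the fibroblast sum was 533.5 to 3788 CPM over all libraries, the endothelial sum stayed at or under 16.7 CPM, the macrophage sum at or under 9.29 CPM, the Schwann cell sum at or under 7.33 CPM in C2C12 cells and 22.5 CPM in PMs, and the neuron sum, nearly all of it Tubb3, at or under 233 CPM. Tcf21 had 0 counts in every library, Emr1, the Schwann cell marker Cdh19 and the endothelial marker Emcn in all C2C12 libraries, and Rbfox3 in all PM libraries. A difference was called where edgeR's quasi-likelihood test gave a p under 0.05 after Benjamini-Hochberg adjustment over all genes tested and the log2 fold change exceeded 1 in size, and adjusted p below always means that test. The labels call the 2 libraries of a group biological replicates and do not say what separated them, so the p-values measure the spread between these samples, which may be technical.

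In siControl cells, 5 of the 6 genes were called between day 0 and day 3 in C2C12 cells and 4 of 6 in PMs, where the background over all genes tested was 28.7% and 32.3% called. Between day 0 and day 6 the counts were 5 of 6 in C2C12 cells and 5 of 6 in PMs, against 31.1% and 35.5% of all genes. Between day 3 and day 6 no member was called in either cell type. There the background was 0% in C2C12 cells, where edgeR called 0 genes in all and 406 had an unadjusted p under 0.05, and 2.8% in PMs. Atp1b1, Atp1b2, Fxyd1 and Fxyd6 rose from day 0 to day 3 in both cell types, Atp1b3 was called in neither, and Fxyd5 fell in C2C12 cells and was higher at day 6 in PMs. In bulk RNA, fewer cells of a type and less RNA per cell cannot be told apart, and this holds for each level given here.

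**Figure D1:**
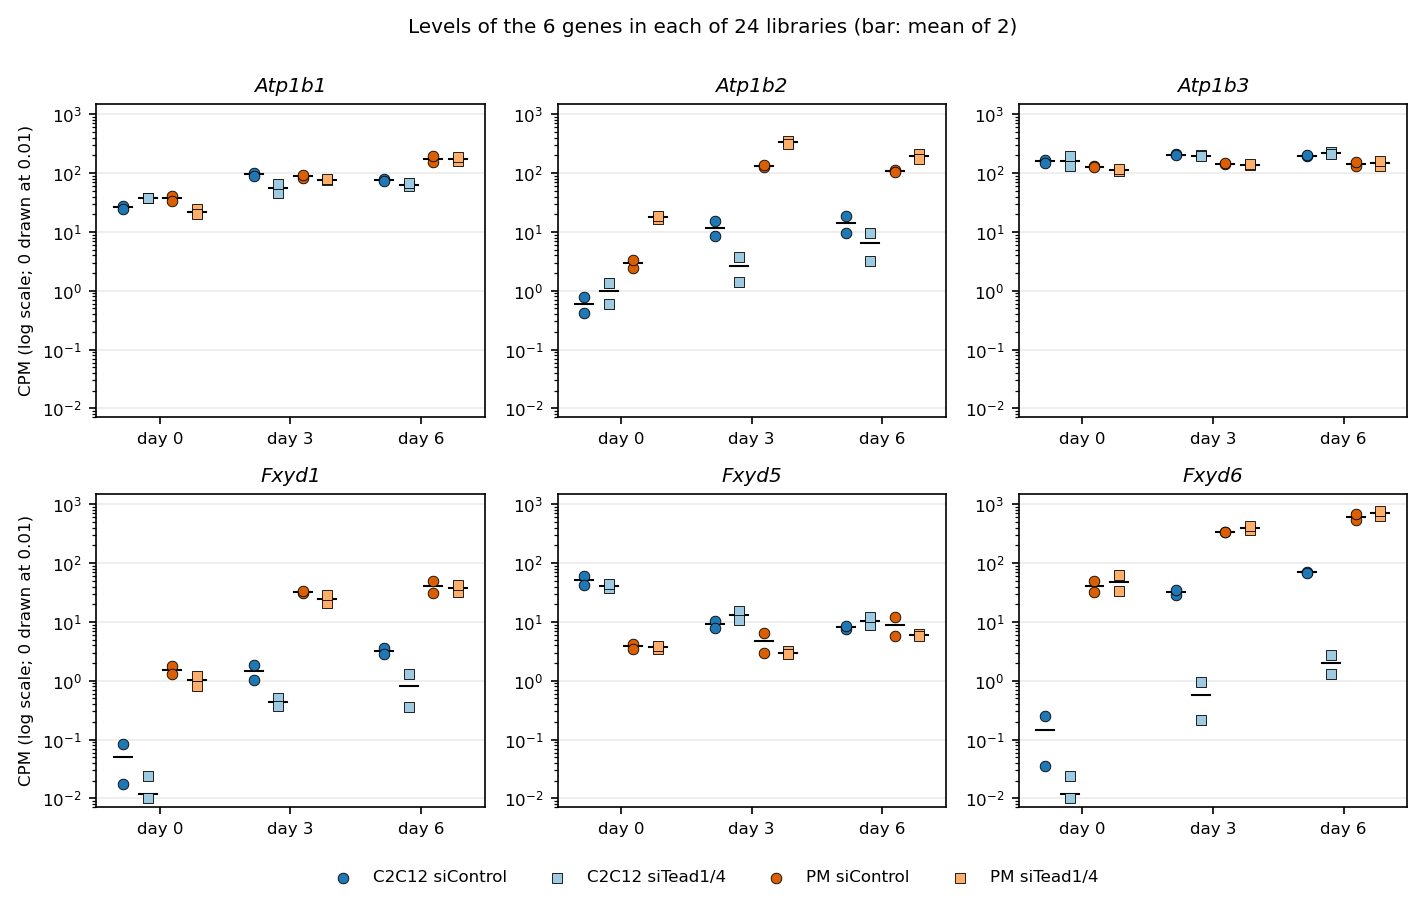
Level of each of the 6 genes in CPM (log axis, 0 drawn at 0.01) at days 0, 3 and 6, with 1 point per library and a bar at the mean of 2. Blue marks C2C12 cells and orange marks PMs, circles mark siControl and squares siTead1/4. Fxyd6 in siTead1/4 C2C12 cells stays at or under 2.75 CPM while all PM libraries lie at 32.3 CPM or above, and Atp1b3 keeps within 110.2 to 228 CPM throughout.

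Atp1b3, the beta 3 subunit, lies on chromosome 9 (mm9, 96233099 to 96264766) and was the most evenly expressed of the 6 genes. In siControl C2C12 cells it was at 168 and 148 CPM at day 0, 210.1 and 204 CPM at day 3 and 195 and 202 CPM at day 6. In siControl PMs it was at 132 and 125, 142 and 149, and 132 and 156 CPM at the same days. No comparison within a cell type called it, and its log2 differences between siTead1/4 and siControl ran from -0.18 in PMs at day 0 to 0.14 in C2C12 cells at day 6. The siTead1/4 libraries held 129.9 and 196, 199.9 and 195, and 228 and 208 CPM in C2C12 cells and 110.2 and 119, 136 and 143, and 132 and 159.8 CPM in PMs. All C2C12 group means lay above all PM group means. Between the siControl cells of each day the log2 difference, PMs minus C2C12 cells, was -0.30, -0.51 and -0.46 (adjusted p = 0.158, 0.0162 and 0.0329), under the size threshold throughout. The small gene Gm17562 overlaps Atp1b3, but its highest count in any library was 1.

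Atp1b1, the beta 1 subunit and the most widely expressed beta subunit, lies on chromosome 1 (166367398 to 166388486). In siControl C2C12 cells it rose from 27.8 and 24.5 CPM at day 0 to 99.0 and 90.7 CPM at day 3 and stood at 79.8 and 72.1 CPM at day 6. The log2 fold change from day 0 to day 3 was 1.82 ± 0.19 (SE, adjusted p = 6.68e-05). In siControl PMs it was 41.4 and 33.8, then 82.4 and 93.2, then 152 and 194 CPM, with a log2 fold change of 2.13 ± 0.159 from day 0 to day 6 (adjusted p = 1.44e-06). None of the 3 days overlapped another in either series, and only in PMs were the day 6 libraries above those of day 3, by 0.97 on the log2 scale (adjusted p = 0.00853, under the size threshold). Without replicate 2 of siControl PM day 3 or replicate 1 of siControl PM day 6 that difference was 1.06 or 1.14 and was called (adjusted p = 0.0354 and 0.0136).

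Under siTead1/4, Atp1b1 stood at 37.2 and 37.4 CPM in C2C12 cells at day 0, 46.5 and 64.6 CPM at day 3 and 59.8 and 67.5 CPM at day 6. At day 3 both silenced libraries were under both control libraries, with a log2 fold change of -0.80 ± 0.185 (adjusted p = 0.0721). In PMs the silenced libraries held 24.1 and 20.4, then 76.5 and 78.4, then 159.9 and 188 CPM. At day 0 this was below both control libraries by -0.77 ± 0.156 on the log2 scale (adjusted p = 0.0158), short of the size threshold, and by day 6 the groups overlapped. At day 0 the groups did not overlap in either cell type and lay in opposite order, lower with siTead1/4 in PMs and higher in C2C12 cells, and the difference of the effects was -1.27 ± 0.244 (adjusted p = 0.2). The share of all genes in such an opposite order was not counted. DESeq2 called the difference of the effects (adjusted p = 0.00137), and so did edgeR without the filter on low counts (0.0163). Over all genes these settings called 32 of 16926 and 88 of 27123, against 1 of 16926 in the test used here. Without replicate 1 of siTead1/4 C2C12 day 0 the value was -1.28.

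Atp1b2, the beta 2 subunit first described as an adhesion molecule on glia, lies on chromosome 11 (69413238 to 69419444). In siControl C2C12 cells it was low at day 0, with 15 and 44 counts or 0.422 and 0.782 CPM, and rose to 8.40 and 15.1 CPM at day 3 and 9.54 and 19.0 CPM at day 6. In siControl PMs it went from 2.44 and 3.38 CPM to 127 and 139 CPM and then 115 and 106 CPM. The rise to day 3 was 4.21 ± 0.738 on the log2 scale in C2C12 cells (adjusted p = 0.00153) and 5.47 ± 0.178 in PMs (adjusted p = 4e-08).

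Atp1b2 was higher with siTead1/4 than with siControl in PMs. The silenced libraries held 16.9 and 18.6 CPM at day 0, 347 and 318 CPM at day 3 and 216 and 175 CPM at day 6, each above both control libraries of its day. The log2 fold changes were 2.62 ± 0.166 at day 0 (adjusted p = 0.000181), 1.31 ± 0.142 at day 3 (adjusted p = 0.000859) and 0.83 ± 0.141 at day 6 (adjusted p = 0.0242, under the size threshold). On the log2 scale the difference was thus widest before the change of medium and smaller at each later day. In CPM the group means lay furthest apart at day 3, 332.5 ± 20.4 with siTead1/4 against 133.2 ± 8.38 with siControl. A change of the difference between days was not tested. Atp1b2 was the 1 member of 6 called between siTead1/4 and siControl in PMs at day 0, where 2.6% of all genes were called, and again at day 3, where 3.3% were. At day 6 no member was called, against 0.743% of all genes. When all 24 libraries were fitted together, the day 3 difference of 1.32 had an adjusted p of 0.167. Since Atp1b2 is also known from glia, Schwann cell markers were set beside it. Of 8 markers 6 could be tested in PMs and 0 were called between siTead1/4 and siControl at any day, and their summed level was 11 to 18.8 CPM with siControl and 13.3 to 20.0 CPM with siTead1/4 at day 0, and 4.12 to 14.5 against 4.86 to 12.3 CPM at day 3. Of 6 endothelial markers Tek was called higher with siTead1/4 at day 0, where the endothelial sum was 3.18 to 11.2 CPM with siControl and 5.30 to 16.7 CPM with siTead1/4. Of 5 fibroblast markers 0 were called at days 0 and 3, and Dcn and Lum were called lower at day 6, while the fibroblast sum at day 0 was 533.5 to 550.3 CPM with siControl and 797 to 855 CPM with siTead1/4. The muscle sum was 7250 to 8990 CPM with siTead1/4 against 8785 to 9381 CPM with siControl at day 0. At day 3 it was 25920 to 28630 against 30270 to 32110 CPM. The sum of 6 proliferation markers, Mki67 and Top2a among them, was 1185 to 1199 against 1589 to 1697 CPM at day 0. At day 3 it was 152.6 to 175 against 135.5 to 166.8 CPM. No muscle or proliferation marker was called at any day. The part of all these markers in the Atp1b2 difference was not tested.

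In C2C12 cells the order was the other way round after day 0. The siTead1/4 libraries held 1.36 and 0.585 CPM at day 0, 1.43 and 3.75 CPM at day 3, and 3.2 and 9.75 CPM at day 6. At day 3 both lay under both control libraries, with a log2 fold change of -2.21 ± 0.659 (adjusted p = 0.145), and at days 0 and 6 the groups overlapped. DESeq2 called the day 3 difference (adjusted p = 0.0126), and so did edgeR with all 24 libraries in 1 fit (0.0177) or with no filter on low counts (4.56e-08). The log2 value hardly moved, at -2.22, -2.17 and -2.20. Over all genes these settings called 596 of 15303, 690 of 16926 and 1055 of 25008, against 195 of 15303 in the test used here. The replicates were far apart, the second library of each pair at days 3 and 6 being the higher in silenced and control cells alike. The contrast of the effects in PMs and C2C12 cells was 3.49 ± 0.676 on the log2 scale at day 3 (adjusted p = 0.0159). It was 1.92 at day 0 and 1.95 at day 6, with adjusted p of 1 and 0.538. Leaving out replicate 2 of siControl C2C12 day 3, either siControl PM day 3 library or replicate 1 of siTead1/4 PM day 3 raised the day 3 adjusted p to between 0.0592 and 0.0977, and leaving out replicate 2 of siTead1/4 C2C12 day 3 moved the difference to 4.36.

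**Figure D2:**
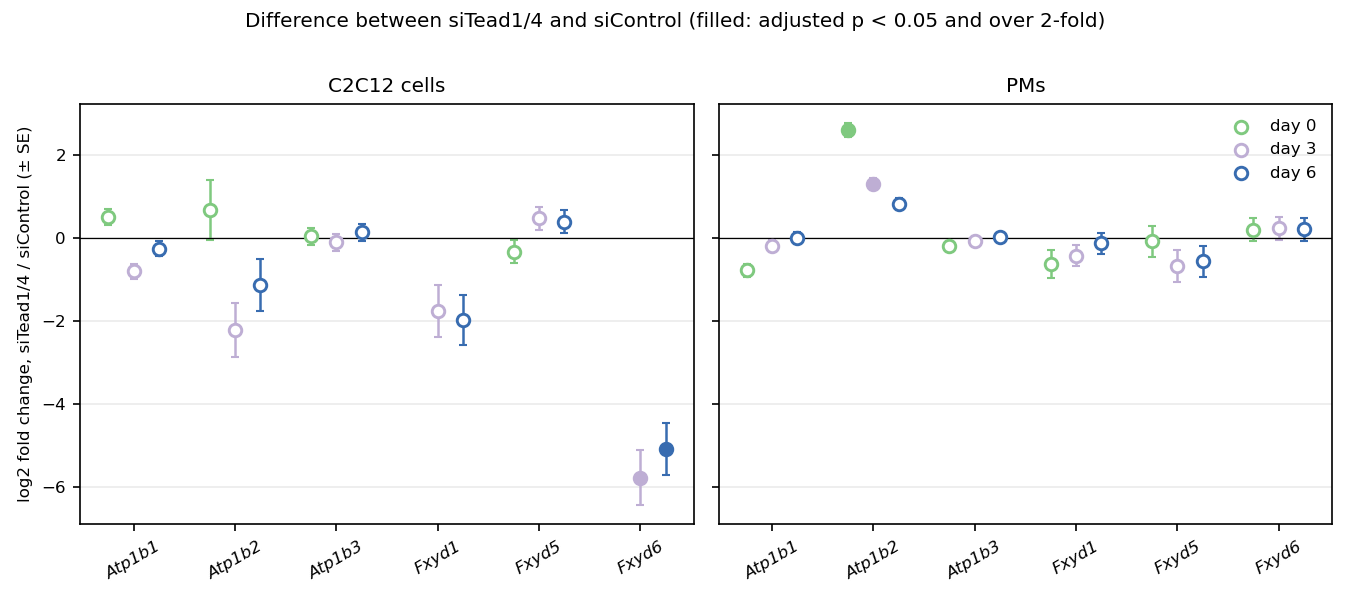
Log2 fold change of siTead1/4 over siControl with its SE (vertical axis) for each gene at days 0, 3 and 6, in C2C12 cells (left) and PMs (right), filled where called. Fxyd6 lies near -5 to -6 in C2C12 cells and near 0 in PMs, and Atp1b2 lies above 0 on all 3 days in PMs. Fxyd1 and Fxyd6 at day 0 in C2C12 cells are not drawn, since the siTead1/4 libraries held at most 1 count.

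The beta subunits were compared with each other per kilobase of gene length, as shares of the summed CPM per kilobase of Atp1b1, Atp1b2 and Atp1b3 in each library. At day 0 Atp1b3 made up 88.6% and 88.5% of the sum in siControl C2C12 cells and 79.9% and 81.8% in siControl PMs. At day 3 it still made up 72.3% and 72.6% in C2C12 cells, with Atp1b2 at 1.33% and 2.47%. In PMs at day 3 Atp1b3 was at 53.7% and 52.2% and Atp1b2 at 22.1% and 22.4%, so at day 3 all 3 beta genes held over 20% of the sum in PMs and Atp1b2 did not in C2C12 cells. With siTead1/4 the PM share of Atp1b2 began at 5.68% and 5.99%, stood at 44.9% and 41.7% on day 3 and came to 27.9% and 20.9% on day 6. The control PM shares were 0.676% and 1.02%, 22.1% and 22.4%, and 17.4% and 13.7% at those days, under both silenced libraries each time. At day 3 in silenced PMs Atp1b2 was the highest of the 3 beta genes per kilobase in both libraries, at 84.9 and 77.9 CPM per kilobase against 72.6 and 76.5 for Atp1b3 and 31.6 and 32.4 for Atp1b1.

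**Figure D3:**
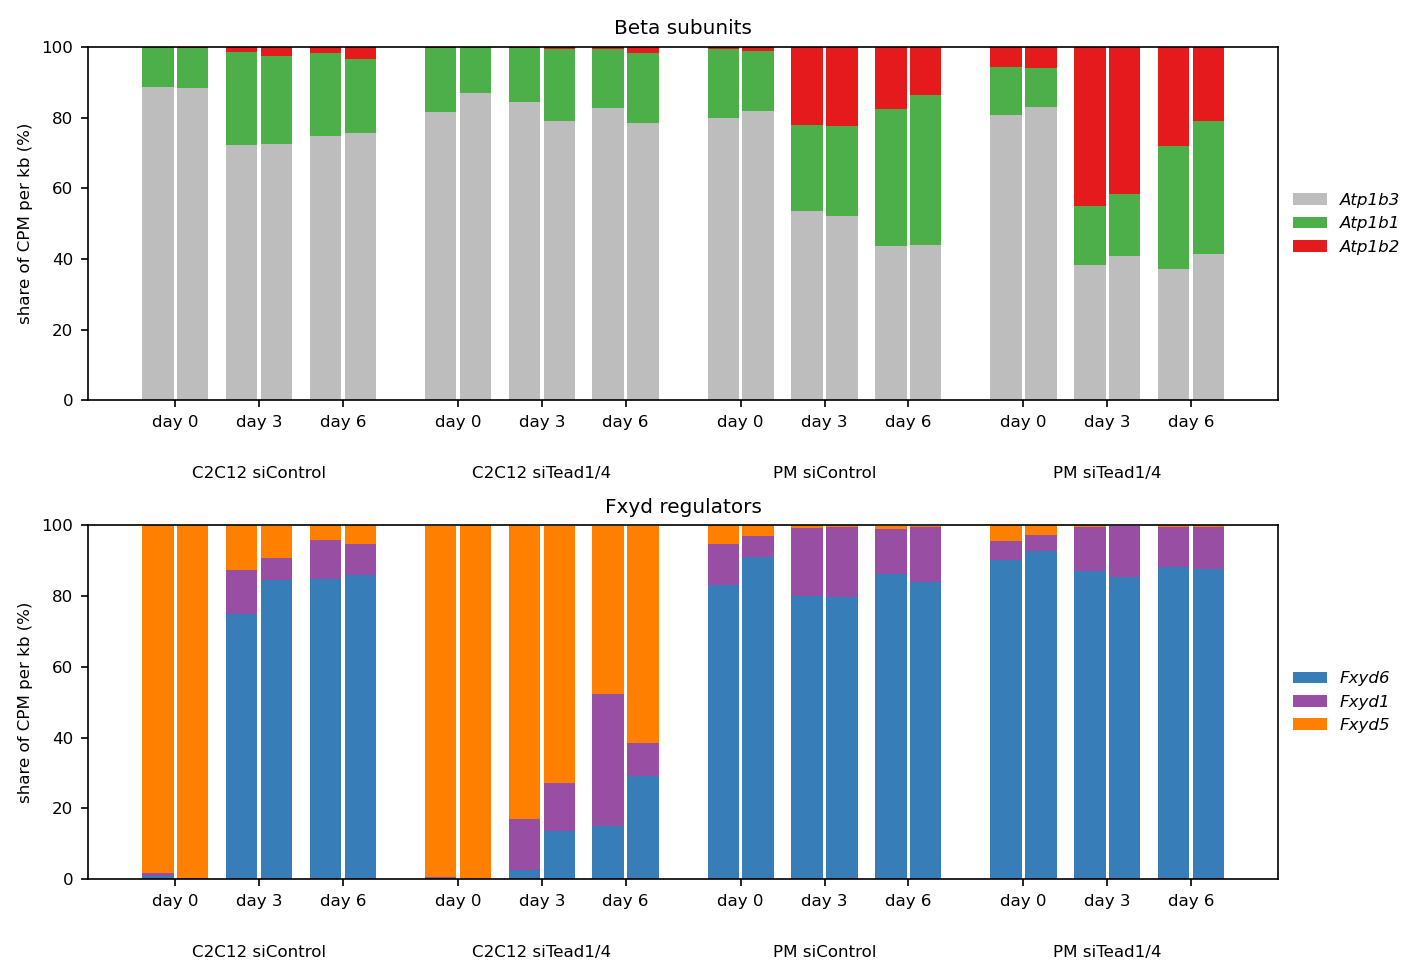
Share of each gene in the summed CPM per kilobase (percent, vertical axis) of the beta subunits (top) and of Fxyd1, Fxyd5 and Fxyd6 (bottom), with 1 bar per library in pairs by day. Atp1b2 takes 44.9% and 41.7% in siTead1/4 PMs at day 3, and Fxyd5 takes 83.1% and 72.8% in siTead1/4 C2C12 cells at day 3 where Fxyd6 takes 75.1% and 84.6% in siControl.

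Fxyd6 lies on chromosome 9 (45178268 to 45204241), 3715 bases before Fxyd2, the gamma subunit of the kidney pump. Of the 6 genes it covered the widest range. In siControl C2C12 cells it had 9 and 2 counts at day 0, or 0.253 and 0.0355 CPM, and then 29.1 and 34.6 CPM at day 3 and 70.7 and 68.6 CPM at day 6. In siControl PMs it was at 32.3 and 50.5 CPM at day 0, 335 and 339 CPM at day 3 and 538 and 682 CPM at day 6. The siControl C2C12 cells at day 6 lay above the siControl PMs at day 0 and below those at day 3. The rise from day 0 to day 3 was 7.91 ± 0.78 on the log2 scale in C2C12 cells (adjusted p = 4.57e-05) and 2.97 ± 0.298 in PMs (adjusted p = 1.25e-05). The C2C12 value rests on the few counts at day 0 and was 9.66 or 6.91 without replicate 1 or 2 of siControl day 0.

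With siTead1/4, C2C12 cells had 1 and 0 Fxyd6 counts at day 0, 8 and 41 counts at day 3 and 45 and 124 counts at day 6, or 0.212 and 0.949 CPM at day 3 and 1.30 and 2.75 CPM at day 6. Every silenced library lay under every control library of its day. The log2 fold change was -5.78 ± 0.664 at day 3 (adjusted p = 0.0093) and -5.08 ± 0.621 at day 6 (adjusted p = 0.0394). At day 0, the summed counts of 11 and 1 gave a ratio of siControl to siTead1/4 of 8.38, with a 95% counting interval of 1.22 to 361 that covers counting error only (adjusted p = 0.614). Fxyd6 was the 1 member of 6 called in C2C12 cells at day 3, where 1.27% of all genes were called, and at day 6, where 0.0457% were. No member was called at day 0, against 0.438% of all genes. The day 3 call ended without replicate 2 of siControl day 3 (adjusted p = 0.0571) and with only the 4 libraries of that day (0.054), and without replicate 1 or 2 of siTead1/4 day 3 the value was -5.08 or -7.22. The day 6 call held without either siControl day 0 library and without either siTead1/4 day 3 library and ended without any other of the 12 C2C12 libraries, the 2 siControl and 2 siTead1/4 libraries of day 6 among them, with adjusted p of 0.0661 to 0.295 and a value of -4.65 to -5.74. With only the 4 libraries of day 6 the adjusted p was 0.112. The summed muscle markers were lower beside it, 5352 to 6979 CPM with siTead1/4 against 14420 to 17180 CPM with siControl at day 3 and 7090 to 13150 against 13460 to 16940 CPM at day 6, with 2 of 8 called lower at day 3 and 0 of 8 at day 6. Their part in the Fxyd6 difference was not tested.

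In PMs Fxyd6 was not called at any day. The silenced libraries held 33.7 and 62.6 CPM at day 0, 366 and 436 CPM at day 3 and 638 and 779 CPM at day 6, with log2 fold changes of 0.21, 0.24 and 0.22 and adjusted p of 0.707, 0.675 and 0.859. The effect in PMs exceeded that in C2C12 cells by 5.99 ± 0.652 on the log2 scale at day 3 (adjusted p = 0.000389) and by 5.30 ± 0.608 at day 6 (adjusted p = 0.0024). These calls held in all 28 alternatives run for each, with adjusted p of up to 0.00548 and 0.0472. Without replicate 2 of siTead1/4 C2C12 day 3 the day 3 value was 7.46, without replicate 1 it was 5.32, and without replicate 2 of siTead1/4 C2C12 day 6 the day 6 value was 5.96. In this contrast 0 of 6 members were called at day 0, 2 of 6 (Atp1b2 and Fxyd6) at day 3 and 1 of 6 (Fxyd6) at day 6, where 0.00591%, 1.25% and 0.0354% of all genes were called. At day 0, where edgeR called 1 gene in all, 725 genes had an unadjusted p under 0.05. DESeq2 called 32 of 16926 genes there, with 1 member, Atp1b1, among them.

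The promoter of Fxyd6 is shown with those of Fxyd1 and Fxyd5, the other members of the family among the 6 genes, since the 3 are compared below. Each runs from 250 bases before to 50 bases after the RefSeq start, 5′ to 3′ on the gene's own strand (build GRCm38.p6), with E-boxes (CANNTG, the site of basic helix-loop-helix factors such as MyoD) in capitals.
Fxyd6, chr9:45369935-45370234, plus strand: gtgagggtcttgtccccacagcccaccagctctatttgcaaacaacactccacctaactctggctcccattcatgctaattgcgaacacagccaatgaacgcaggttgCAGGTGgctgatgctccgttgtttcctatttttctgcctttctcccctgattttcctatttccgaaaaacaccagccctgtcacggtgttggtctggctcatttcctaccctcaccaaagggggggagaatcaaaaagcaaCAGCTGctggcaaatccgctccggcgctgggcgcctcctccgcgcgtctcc
Fxyd1, chr7:31054804-31055103, minus strand: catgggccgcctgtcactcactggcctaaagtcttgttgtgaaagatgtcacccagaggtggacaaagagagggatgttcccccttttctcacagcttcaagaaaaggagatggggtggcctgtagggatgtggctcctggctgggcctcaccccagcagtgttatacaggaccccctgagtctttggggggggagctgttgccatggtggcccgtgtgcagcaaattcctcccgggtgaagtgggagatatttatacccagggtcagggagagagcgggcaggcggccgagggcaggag
Fxyd5, chr7:31042282-31042581, minus strand: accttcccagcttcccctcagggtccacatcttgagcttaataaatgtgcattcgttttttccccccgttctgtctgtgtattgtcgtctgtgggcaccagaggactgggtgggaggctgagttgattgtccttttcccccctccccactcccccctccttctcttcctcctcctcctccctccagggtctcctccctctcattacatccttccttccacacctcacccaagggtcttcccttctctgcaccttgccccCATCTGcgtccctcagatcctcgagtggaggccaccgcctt

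Of the 6 genes, 5 had an entry among the promoters, with 2 for Atp1b3, and Atp1b2 had none. Fxyd6 held 2 E-boxes, CAGGTG at -142 to -137 and CAGCTG from -1 to 5 counted from the start, Fxyd5 and each Atp1b3 entry held 1, and Fxyd1 and Atp1b1 held none. An E-box stood in 72.3% of all 32851 promoters of this length, and the CAGCTG kind, a subset of it, in 16.3%. The core of the MCAT element, CATTCC, which TEAD factors bind, was searched on both strands and was in none of the 6 entries, while 14.7% of all promoters held it. These are matches of letters in a short window and say nothing of binding.

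Fxyd1 lies on chromosome 7 (31836700 to 31840675), separated from Fxyd5 (31817741 to 31827500) by Fxyd7 alone, with 218 bases between Fxyd7 and Fxyd1. The siControl C2C12 libraries had 3 and 1 counts at day 0, then 1.89 and 1.01 CPM at day 3 and 3.60 and 2.81 CPM at day 6. Against the 4 counts of day 0, the 130 counts of day 3 gave a ratio of 32.5 (95% counting interval 12.4 to 121) and the 271 counts of day 6 a ratio of 76.0 (29.4 to 281). Without replicate 1 or 2 of siControl day 0 the fitted log2 value moved from 4.88 to 6.09 or 4.001 for day 3 and from 6.03 to 7.25 or 5.16 for day 6, and these fitted values rest on the few counts of day 0. In siControl PMs it was at 1.8 and 1.30 CPM at day 0, 31.6 and 33.8 CPM at day 3 and 31.5 and 49.9 CPM at day 6, a rise of 4.33 ± 0.305 on the log2 scale to day 3 (adjusted p = 1.25e-06). The days 3 and 6 overlapped each other in PMs and both lay far above day 0.

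Silenced C2C12 cells held 0.503 and 0.370 CPM of Fxyd1 at day 3 and 1.30 and 0.355 CPM at day 6, under both control libraries each day. The log2 fold changes were -1.75 ± 0.627 and -1.98 ± 0.601, and neither was called (adjusted p = 0.226 and 0.406). Without replicate 1 or 2 of siTead1/4 day 6 the day 6 value was -3.16 or -1.31. At day 0 both groups were at or under 3 counts per library and no ratio is given. Silenced PMs held 0.799 and 1.22, 20.6 and 28.7, and 32.7 and 42.1 CPM, with log2 fold changes of -0.62, -0.42 and -0.12 (adjusted p = 0.314, 0.361 and 0.926). The log2 fold change of Fxyd1 was thus negative in all 5 of these pairs of groups and was called in none. Without the filter on low counts it was called in C2C12 cells at days 3 and 6 (adjusted p = 0.00714 and 0.00189). That setting called 1055 and 387 of 25008 genes on those days, against 195 and 7 of 15303 with the filter.

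Fxyd5 followed another course. Among siControl C2C12 libraries it was highest at day 0, 59.5 and 43.2 CPM, and was at 10.4 and 7.95 CPM at day 3 and 7.44 and 8.65 CPM at day 6, a fall of -2.52 ± 0.288 on the log2 scale to day 3 (adjusted p = 0.000115). In siControl PMs it was low from the start, at 4.26 and 3.52, then 6.59 and 3.01, then 12.0 and 5.77 CPM. The PM rise to day 6 was 1.12 ± 0.381 (adjusted p = 0.025), and without replicate 1 of siControl PM day 6 it was 0.50 (adjusted p = 0.289). Without replicate 1 or 2 of siControl PM day 0 it was 1.27 or 0.995 (adjusted p = 0.0633 and 0.122). Silenced C2C12 cells held 37.4 and 44.8, 15.4 and 10.7, and 8.82 and 12.3 CPM, and silenced PMs 3.53 and 3.91, 3.15 and 2.86, and 6.32 and 5.77 CPM, and none of these 6 comparisons was called.

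Per kilobase, the 3 regulators changed places in C2C12 cells. Fxyd5 made up 98.4% and 99.6% of the summed CPM per kilobase of Fxyd1, Fxyd5 and Fxyd6 in siControl C2C12 cells at day 0, and 12.7% and 9.14% at day 3, when Fxyd6 made up 75.1% and 84.6%. With siTead1/4 Fxyd5 still made up 83.1% and 72.8% at day 3 and 47.6% and 61.4% at day 6, and Fxyd6 2.42% and 13.7%, then 14.9% and 29.1%. The summed level was 3.88 to 5.27 CPM per kilobase in silenced C2C12 cells at days 3 and 6 against 21.7 to 46.5 in control cells. In all 12 PM libraries Fxyd6 took 79.6% to 92.7% of the sum and Fxyd5 at most 5.16%, with either siRNA. The Fxyd5 length in the table, 3807 bases, is shorter than the union of its exons in GENCODE vM1, 4185 bases, and all shares use the length in the table.

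Between siControl PMs and siControl C2C12 cells, 4 of the 6 genes were called at day 0, 3 at day 3 and 4 at day 6, where 26.8%, 29.8% and 24.9% of all genes were called. Fxyd6 was higher in PMs by 8.36 ± 0.64 on the log2 scale at day 0, 3.40 ± 0.431 at day 3 and 3.13 ± 0.425 at day 6 (adjusted p = 2.2e-08, 9.05e-06 and 2.46e-05). The day 0 value was 10.06 or 7.33 without replicate 1 or 2 of siControl C2C12 day 0. Atp1b2 was higher by 2.20 ± 0.586, 3.50 ± 0.498 and 2.96 ± 0.487 (adjusted p = 0.00622, 2.85e-05 and 0.000162), and the day 0 value without replicate 1 of siControl C2C12 day 0 was 1.88 (adjusted p = 0.0588). Fxyd1 was higher by 4.50 ± 0.457 at day 3 and 3.66 ± 0.434 at day 6 (adjusted p = 8.89e-07 and 5.98e-06), and at day 0 its 131 counts in PMs against 4 gave a ratio of 36.4 (13.9 to 135). Without replicate 1 or 2 of siControl C2C12 day 0 the fitted log2 value of that Fxyd1 difference moved from 5.05 to 6.22 or 4.16. Fxyd5 was lower in PMs at day 0 by -3.72 ± 0.375 (adjusted p = 5.9e-07) and overlapped at day 6. At day 3 the Fxyd5 difference was -0.94 ± 0.347 (adjusted p = 0.0357), under the size threshold, and without replicate 2 of siControl C2C12 day 3 or replicate 1 of siControl PM day 3 it was -1.12 or -1.61 and was called. Atp1b1 was called at day 6 alone, 1.19 ± 0.172 higher in PMs (adjusted p = 4.78e-05), and without replicate 2 of siControl PM day 6 it was 0.9985, just under the size threshold. Of 7 Schwann cell markers tested between the cell types, 2, 3 and 4 were higher in siControl PMs at days 0, 3 and 6, and of 6 endothelial markers 4, 4 and 1, with 0 lower. Of 5 fibroblast markers 2, 4 and 1 were lower in PMs and 0, 1 and 1 higher, and of 4 macrophage markers 1 was higher and 1 lower at each day. Tubb3, the 1 neuron marker tested, was lower in PMs at day 0. The Schwann cell sum was 3.78 to 22.5 CPM over the 2 siControl PM libraries of day 6, where Atp1b2 was at 115 and 106 CPM, and 1.83 to 2.57 CPM in siControl C2C12 cells. Sox10, which defines that lineage, had at most 1 count in C2C12 cells and 4.01 CPM at most in PMs. All 8 muscle markers were higher in PMs at day 0 and 3 of 8 at days 3 and 6. The part of these markers in the differences was not tested.

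The summed CPM per kilobase of the 3 beta genes was 101 and 89.3 in siControl C2C12 cells at day 0, 155 and 150.1 after 3 days and 139 and 142 after 6 days. With siTead1/4 the C2C12 sums were 85.0 and 120.4, 126 and 132, and 147 and 142, under both control libraries at day 3 and overlapping them at day 0. In siControl PMs the sum was 88.2 and 81.5, then 141 and 152, then 161 and 189. Silenced PMs held 72.9 and 76.2 before differentiation, under both control libraries, and 189 and 187 at day 3, over both, with Atp1b2 making up the largest share of the latter. These sums are levels and were not tested.

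**Figure D4:**
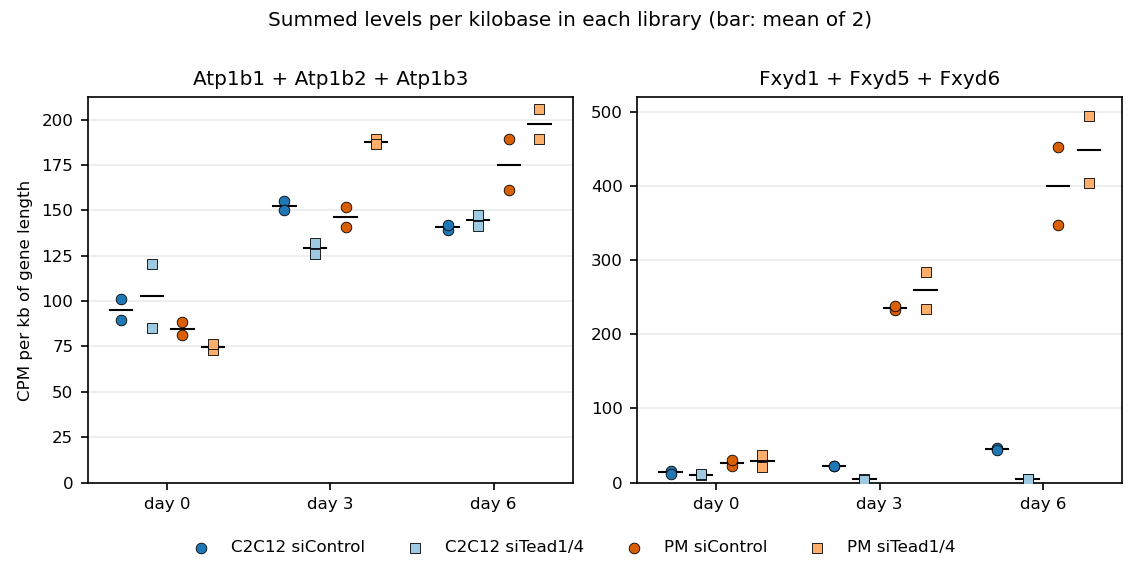
CPM per kilobase of Atp1b1, Atp1b2 and Atp1b3 together (left) and of Fxyd1, Fxyd5 and Fxyd6 together (right), with 1 point per library and a bar at the mean of 2. The Fxyd sum in PMs reaches 347.8 to 496 CPM per kilobase at day 6, and in siTead1/4 C2C12 cells it stays at 5.27 or below after day 0.

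Of a list of 37 other pump, sodium transport and regulator genes, all 37 were in the table. Between siTead1/4 and siControl, 24 were tested in C2C12 cells, of which 0 were called at day 0, 3 or 6, with a median log2 fold change of 0.03, -0.22 and 0.05. Of all genes 0.438%, 1.27% and 0.0457% were called at those days, so few or no calls could be looked for in so short a list. In PMs 27 were tested, and 2.6%, 3.3% and 0.743% of all genes were called at days 0, 3 and 6. At day 0 Sgk1, a kinase that raises sodium transport, was higher (1.03 ± 0.245, adjusted p = 0.031), and the call ended with all 24 libraries in 1 fit (adjusted p = 0.253) and without any 1 of the 4 PM day 0 libraries (0.85 to 1.25, adjusted p = 0.0707 to 0.192). At day 3 Slc8a3, a sodium-calcium exchanger of muscle, was higher (1.02 ± 0.251, adjusted p = 0.0359), and the call ended with all 24 libraries in 1 fit (adjusted p = 0.0507), without replicate 1 of siControl PM day 3 (0.74, adjusted p = 0.233) and without replicate 1 or 2 of siTead1/4 PM day 3 (adjusted p = 0.117 and 0.136). At day 6 none was called. Of the neighbours of the Fxyd members, Fxyd7 had at most 3 counts, Fxyd3 at most 3 and Fxyd2 at most 9 in any library, while Fxyd1, Fxyd5 and Fxyd6 beside them reached 1530, 2430 and 25113 counts. Atp1b4, a relative of the beta subunits found in muscle, had at most 6 counts in any C2C12 library. In PMs it had 75 and 363 counts with siControl at day 3 and 1097 and 532 with siTead1/4, and 48 and 32 against 488 and 110 at day 6, with log2 fold changes of 1.70 ± 0.703 and 2.75 ± 0.786 (adjusted p = 0.183 and 0.152).

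Ordered by group mean, each gene had its own ladder of the 12 groups, in which neighbours with overlapping libraries cannot be ranked. For Fxyd6, 4 of the 11 neighbouring pairs overlapped, and the order ran from siTead1/4 PMs at day 6 (708 ± 99.3 CPM) and siControl PMs at day 6 (609.9 ± 102 CPM), which overlapped, down to siTead1/4 C2C12 cells at day 0. For Atp1b2, 6 of 11 overlapped, and the 4 highest groups were PMs at days 3 and 6, siTead1/4 above siControl, none overlapping its neighbour. For Atp1b1, Fxyd1, Fxyd5 and Atp1b3, 5, 7, 8 and 8 of 11 pairs overlapped, with siTead1/4 PMs at day 6 highest for Atp1b1, siControl PMs at day 6 for Fxyd1, siControl C2C12 cells at day 0 for Fxyd5 and siTead1/4 C2C12 cells at day 6 for Atp1b3.

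As a description over the 24 libraries, which share groups and cell types, the log2 CPM of Fxyd6 and Fxyd1 had a Pearson r of 0.938, that of Fxyd1 and Atp1b2 0.927 and that of Fxyd6 and Atp1b2 0.904. Fxyd5 ran against Fxyd6, with r = -0.816 over all libraries and -0.835 within the 12 C2C12 libraries, but 0.422 within the 12 PM libraries. Among the 16920 other genes, the 3 with the highest r over the 24 libraries were Acsl1 (0.985), Gpr157 (0.978) and Stradb (0.971) for Atp1b2, and 2810432L12Rik (0.973), Myh8 (0.972) and Lrtm1 (0.969) for Fxyd6. For Fxyd1 they were Nit1 (0.979), Myadml2 (0.978) and Mettl22 (0.977), and for Fxyd5 Havcr2 (0.97), Twist2 (0.961) and A930004D18Rik (0.947). For Atp1b1 they were Rilpl1 (0.936), Cyb5d2 (0.93) and A930005H10Rik (0.928), and for Atp1b3 Zfp622 (0.933), Fam50a (0.932) and Pttg1ip (0.932).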

How the data were processed

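RNA-seq libraries of C2C12 cells and PMs were grouped by cell type, siRNA and day from the sample titles, 2 per group. Per the submitters' processing notes and the study's methods, reads were mapped to mm9 with TopHat2 2.0.10 and Bowtie2 2.1.0 and counted with HTSeq 0.6.1, and the kit (TruSeq RNA) did not keep strand. The authors deposited 1 table with raw read counts per gene, which were used here as deposited, and normalized values, which were not used. The table also holds 36 columns for 12 further libraries outside the sample list, which were not used.

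Members and gene lists were chosen with earlier results of these data known. Counts were tested with edgeR 4.0.16 in R 4.3.3 (filterByExpr, TMM, glmQLFit, glmQLFTest) in 1 fit of 12 libraries per cell type, and in 1 fit of all 24 libraries for contrasts between cell types. SE is the log2 fold change over the square root of F. Benjamini-Hochberg adjustment ran over all genes tested. The fits were first tested on simulated data. The replicates of each group differed by more than counting noise. Gene lengths and starts are those of the deposited table, and 27542 of 28109 genes had the same start and end in GENCODE vM1, so the builds match. The rule named the 6 members, Tead1, Tead4, other pump genes called in a siTead1/4 comparison and, per member, the 3 genes of highest r (log2 CPM, prior count 2). Some genes that the rule also named are not reported here. Atp1b4, Fxyd2, Fxyd3 and Fxyd7, from the list of other pump genes, were named after their values were seen. Contrasts with a group of at most 3 counts in each library are given as counts, with an exact binomial interval for their ratio that covers counting error only. Alternatives were RLE scaling, DESeq2 1.42.0, no filter, at least 10 counts in every library, a replicate block, leaving out each library, only the 4 libraries of a contrast, and all 24 libraries in 1 fit.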

Additional observations from a re-analysis of the deposited data

Results flagged for a closer look

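The effects of siTead1/4 differed between PMs and C2C12 cells, by a test of the difference itself in 1 edgeR fit of all 24 libraries, for Fxyd6 at day 3 (5.99 on the log2 scale, PM effect minus C2C12 effect), for Fxyd6 at day 6 (5.30) and for Atp1b2 at day 3 (3.49). At day 3 both siTead1/4 libraries of Fxyd6 and of Atp1b2 lay above both siControl libraries in PMs and under them in C2C12 cells. By edgeR's quasi-likelihood test the PM difference of Fxyd6 (0.24, adjusted p = 0.675) was not called. Nor was the C2C12 difference of Atp1b2 (-2.21, adjusted p = 0.145). How many of all genes lay in opposite order in this way was not counted. Atp1b1 at day 0 showed the opposite arrangement, with an adjusted p of 0.2 by edgeR's quasi-likelihood test for the difference of -1.27. The log2 fold change of Tead4 at day 3 was -1.76 in C2C12 cells and -2.58 in PMs, and the part of unequal silencing in these differences was not tested.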

How the results depend on the processing

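Over the alternatives named in the methods, no called member changed sign. Of 108 differences of a member, RLE scaling and the replicate block left all 108 on their side of the threshold, DESeq2 added 2 calls, and dropping the filter on low counts added 9. Where DESeq2 added calls, it called 596 genes against 195 (siTead1/4 in C2C12 cells, day 3) and 32 against 1 (difference of effects, day 0). Calls over all genes also rose with no filter, given here for days 0, 3 and 6. For siTead1/4 in C2C12 cells they went from 67, 195 and 7 of 15303 to 480, 1055 and 387 of 25008. For the difference of effects they went from 1, 212 and 6 of 16926 to 88, 853 and 146 of 27123. The stricter filter removed Fxyd1 and Fxyd6 from the C2C12 and joint fits, and then 84 differences could be tested. The number of calls among the 18 combinations of member and day or pair of days was 2 for siTead1/4 in C2C12 cells, 6 with no filter on low counts, 0 with at least 10 counts in every library, since Fxyd6 was then not tested, 0 with only the 4 libraries of the contrast, and 0 to 2 when 1 library was left out. For siTead1/4 in PMs it was 2, and 1 with all 24 libraries in 1 fit. For siControl days in C2C12 cells it was 10, and 6 with at least 10 counts. For the difference of effects between PMs and C2C12 cells it was 3, 7 with no filter on low counts and 1 with at least 10 counts. For siControl PMs against C2C12 cells it was 11, and 5 with at least 10 counts. Apart from fewer genes tested or fewer samples, the cause was not tested. Leaving out 1 library, over 1728 values, ended 18 calls, added 5 and turned the sign of 30 uncalled values.

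The labels give replicate numbers, and the library tags in the titles run in sequence within each replicate number of a cell type. They do not say whether same-numbered libraries were prepared together. With the replicate number as a block the calls among the members were 2, 2, 10, 9, 3 and 11 in the 6 families of comparison, as without it. Fxyd1 between siControl PMs and C2C12 cells at day 6 moved from 3.66 to 3.06. Replicate deviations of 2 groups correlated at -0.168 to 0.468 in C2C12 cells and at 0.0548 to 0.503 in PMs across genes. For the siTead1/4 and siControl groups of the same day, r was 0.377, 0.409 and 0.503 in PMs at days 0, 3 and 6. In C2C12 cells it was -0.13, 0.0896 and 0.468. Over all genes, the block took the siTead1/4 calls of these days from 420, 532 and 120 to 586, 792 and 290 in PMs. In C2C12 cells the calls went from 67, 195 and 7 to 82, 258 and 12. The test used above had no block.

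Precision is limited by 2 libraries per group and, for Fxyd1, Fxyd6 and Atp1b2 in C2C12 cells at day 0, by counts of 58 or fewer.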
